A study of Saccharomyces cerevisiae with 14 samples.

Results

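The vacuole is the degradative compartment of the yeast cell, and 5 genes of its protease system are described here over 14 gene arrays. PRB1 (YEL060C) encodes proteinase B, a subtilisin-type serine endoprotease. PEP4 (YPL154C) encodes proteinase A, the aspartyl endoprotease at the head of the activation cascade. PRC1 (YMR297W) encodes carboxypeptidase Y, a serine carboxypeptidase. CPS1 (YJL172W) encodes carboxypeptidase S, a zinc carboxypeptidase, and PBI2 (YNL015W) a small cytosolic inhibitor of proteinase B. The 5 genes are 5 of the 6094 open reading frames measured, and all 5 were found by their systematic names. The genes were listed by name, with earlier results of these data known. PRB1 was chosen by its intensity in YPD against F1, which those results had shown to be lower in YPD. Its difference between the media is therefore given as a description, with no test.

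Vacuolar proteases are made as inactive precursors that pass through the secretory pathway and are cleaved in the vacuole, where proteinase A starts a chain of activation that proteinase B continues. Small inhibitor proteins in the cytosol bind individual proteases. The system recycles amino acids from proteins and peptides, and its genes are known to be expressed more strongly when rich nitrogen and carbon sources run short.

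The study treated Saccharomyces cerevisiae in mid log phase with low doses of methyl methanesulfonate (MMS), a DNA-alkylating agent, and hybridised radioactively labelled cDNA of total RNA to gene membranes. Strain FF18984 was grown in minimal medium (F1) or in full medium (YPD). In each medium it was sampled after 1 h and after 30 min of mock treatment, 0.00125% MMS (the low dose) or 0.0125% MMS (the high dose), which makes 12 arrays. Strain BY4742, a laboratory strain of mating type alpha, was grown in YPD and treated with the high dose or mock for 1 h, which makes 2 arrays. Each medium and time had a membrane of its own, which per the labels was stripped and used again for the next treatment. The arrays thus form 5 membrane sets, with 1 array per condition, and medium, time and strain each differ between membranes. Within a set each dose was a separate use of the membrane, so dose and use cannot be told apart. The labels do not state whether the sets came from separate cultures. A p-value here thus speaks only for the spread among these arrays, partly pooled over genes, which may be technical.

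The arrays differed in quality and did not group as the labels would have them. The median background-subtracted intensity ran from 41.7 to 2018610 per array, and 2.58% to 33.4% of genes lay at or below the background. Over all genes, the FF18984 arrays correlated with a median r of 0.83 within 1 h, 0.80 within 30 min and 0.40 between the times. The BY4742 arrays, labelled 1 h, correlated at 0.35 to 0.42 with the FF18984 arrays at 1 h and at 0.69 to 0.86 with those at 30 min. All 7 a-specific and all 4 alpha-specific genes lay on the side of their strain label, by the mean of the FF18984 arrays. The ranges of MFA1, AGA2, BAR1 and SAG1 overlapped between the strains. Of 4 marker genes that are deleted in whole or in part in BY4742, URA3 and LEU2 were lower in BY4742. HIS3 and LYS2 overlapped between the strains. LYS2 was bright in BY4742, at 3.72 and 4.25, against -2.39 to 6.15 in FF18984. The number of arrays limits the precision.

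Values below are log2 of the background-subtracted intensity after scaling, addition of a pseudocount and quantile normalization, so that a difference of 1 is a 2-fold change on that scale, and the change of dim genes is understated. Levels are compared only within a gene, since the probes of different genes were not calibrated against each other.

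PRB1, the activating serine protease, was bright on every F1 array and lower on every YPD array. In F1 at 1 h it stood at 1.70, 1.64 and 2.42 in mock, low-dose and high-dose cells. In F1 at 30 min it stood at 2.63, 2.14 and 2.76 in the same order of doses. In YPD at 1 h the values were -2.03, 0.65 and 0.70, and in YPD at 30 min they were -1.40, -1.18 and -0.21. All 6 F1 arrays lay above all 6 YPD arrays, a separation that 50 of the 6094 genes, or 0.82%, showed in this direction. The mean level was 2.22 ± 0.47 in F1 and -0.58 ± 1.13 in YPD (SD, n = 6 each), and the fitted difference was 2.79 ± 0.43 (SE). That equals 6.94-fold. As the gene was chosen for this difference, nothing is read from the background share.

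PRB1 lay near the background on part of the YPD arrays, which limits how exactly its fold can be stated. Of its pair of spots, 1 lay at or below the background on the YPD mock array at 1 h and on the BY4742 mock array. Its spot integral was 1.92 to 4.35 times the local background on the F1 arrays and 1.02 to 1.61 times on the FF18984 YPD arrays. This ratio was not scaled, and its median over all genes differed among the FF18984 arrays, from 1.09 to 2.09. The ranges of PRB1 in the media did not overlap, which is a description only. In rank within the array, PRB1 lay between percentiles 82.7 and 92.6 in F1 and between 8.80 and 68.6 in YPD.

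**Figure D1:**
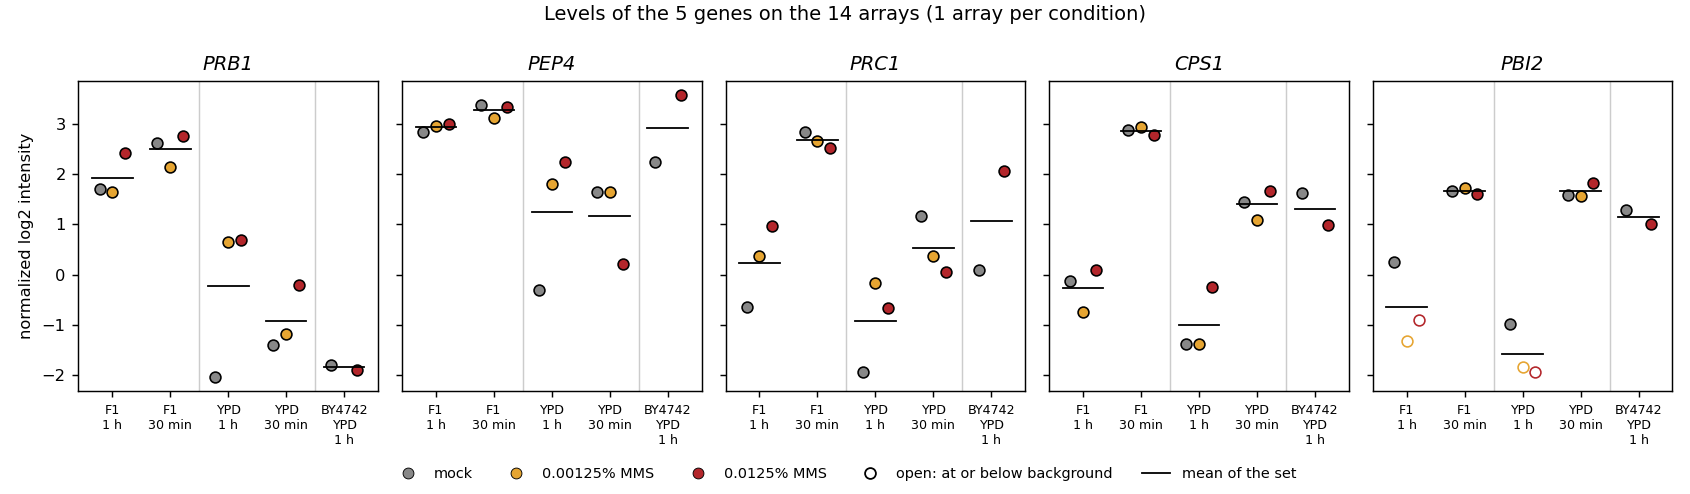
Normalized log2 intensity of each gene (vertical axis) on the 14 arrays, by membrane set (horizontal axis), with points coloured by MMS dose and a bar at the mean of each set. Open points lie at or below the background. In FF18984, PRB1 and PEP4 separate by medium at both times, while PRC1, CPS1 and PBI2 drop at 1 h in both media.

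PEP4, the protease that starts the cascade, was higher in F1 and nearly constant there. Its level in F1 was 2.84, 2.97 and 3.0 at 1 h and 3.38, 3.12 and 3.33 at 30 min, in the order mock, low dose, high dose. In YPD it was -0.31, 1.81 and 2.24 at 1 h and 1.64, 1.64 and 0.21 at 30 min. The F1 arrays, from 2.84 to 3.38, lay above all 6 FF18984 YPD arrays, as they did for 0.82% of all genes. The BY4742 YPD arrays stood at 2.25 in mock and 3.58 in high-dose cells, the latter above every F1 array. The FF18984 YPD arrays scattered widely, with the 1 h mock array and the 30 min high-dose array lowest. The mean was 3.11 ± 0.21 in F1 and 1.21 ± 1.01 in YPD (SD, n = 6 each). The difference of 1.90 ± 0.43 (SE), or 3.73-fold, passed in the limma fit over all genes with membrane set as a random block (adjusted p = 0.016). It also passed when the 4 set means were compared, 2 sets against 2 (limma, adjusted p = 0.017). The call ended under median centring, at 1.44 (limma, adjusted p = 0.089), and without background correction, at 1.01 (limma, adjusted p = 0.079). The ratio of spot integral to background did not separate the media for PEP4, at 1.63 to 3.28 in F1 and 1.09 to 3.66 in YPD.

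PRC1, the carboxypeptidase Y gene, was higher in F1 in the random-block fit, and its levels differed strongly between the times. In F1 it was at -0.64, 0.38 and 0.97 at 1 h and at 2.85, 2.65 and 2.52 at 30 min. In YPD it was at -1.93, -0.16 and -0.66 at 1 h and at 1.17, 0.37 and 0.06 at 30 min. The media overlapped at 1 h, where the F1 mock array lay below the YPD low-dose array, and did not overlap at 30 min. Without the F1 30 min set the difference was 1.15 (limma, adjusted p = 0.31), and without the YPD 30 min set the same difference had an adjusted p of 0.37 in limma. The fitted difference of 1.65 ± 0.41 (SE), or 3.13-fold, passed in the random-block fit (limma, adjusted p = 0.026) but not for the set means (limma, adjusted p = 0.058). Without background correction the difference was 0.51 (limma, adjusted p = 0.37), and without the YPD mock array at 1 h it was 1.49 (limma, adjusted p = 0.057).

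CPS1, the carboxypeptidase S gene, showed the same order at a smaller size. Its F1 levels were -0.13, -0.74 and 0.10 at 1 h and 2.87, 2.93 and 2.78 at 30 min. Its YPD levels were -1.38, -1.38 and -0.24 at 1 h and 1.45, 1.10 and 1.67 at 30 min. Every F1 array lay above its YPD counterpart of the same dose and time, and at 30 min the media did not overlap. The difference of 1.10 ± 0.30 (SE), or 2.14-fold, passed in the random-block fit (limma, adjusted p = 0.046) but not for the set means (limma, adjusted p = 0.36). Without the YPD mock array at 1 h it was 1.04 (limma, adjusted p = 0.076).

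PBI2, the inhibitor of proteinase B, did not pass between the media, and its levels differed more between the times than between the media. At 1 h it was at 0.26, -1.31 and -0.90 in F1, against -0.97, -1.83 and -1.94 in YPD, in the order mock, low dose, high dose. At 30 min it was at 1.66, 1.73 and 1.60 in F1, against 1.59, 1.57 and 1.83 in YPD. It lay at or below the background on the 4 treated arrays at 1 h and above it on the other 10 arrays, so its low-dose and high-dose values at 1 h are bounds rather than levels. The fitted difference was 0.46 ± 0.34 (SE; limma, adjusted p = 0.49). The mean difference was 0.93 at 1 h and -0.0011 at 30 min.

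Of the 4 genes that could be tested, 3 were higher in F1 in the random-block fit (PEP4, PRC1 and CPS1) and 1 for the set means (PEP4). Over all genes, 1.95% passed as higher in the random-block fit and 0.985% for the set means. As the genes were listed with earlier results of these data known, the counts are not free of that choice. With 4 sets there is little to estimate the random block from. On simulated data of this layout the p-values with that block came out too small, whereas those of the set means did not. The SE for the set means was nearly the same in the 4 genes, from 0.51 for PEP4 to 0.53 for PBI2. The p-value of the set means thus followed the size of the difference, and hardly the spread of the single gene. Medium and the membranes that carried it cannot be told apart in either test.

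Set against the YPD array of the same dose and time, the F1 array was higher in 6 of 6 pairs for PEP4, PRC1 and CPS1, and in 5 of 6 for PBI2. Of all genes, 7.76% were higher in 6 of 6 pairs. PRB1 was higher in 6 of 6 as well, from which nothing is read, as it was chosen on this difference. For PRB1 the differences ran from 0.99 in low-dose cells at 1 h to 4.02 in mock cells at 30 min. For PEP4 they ran from 0.76 in high-dose cells at 1 h to 3.15 in mock cells at 1 h. The range was 0.54 to 2.47 for PRC1, 0.34 to 1.83 for CPS1 and -0.23 to 1.23 for PBI2. The smallest of the 6 differences fell on a treated pair at 1 h in PRB1, PEP4, PRC1 and CPS1, where 16.1% to 33.4% of genes lay at or below the background. Whether that loss of signal bears on the smaller differences was not tested.

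**Figure D2:**
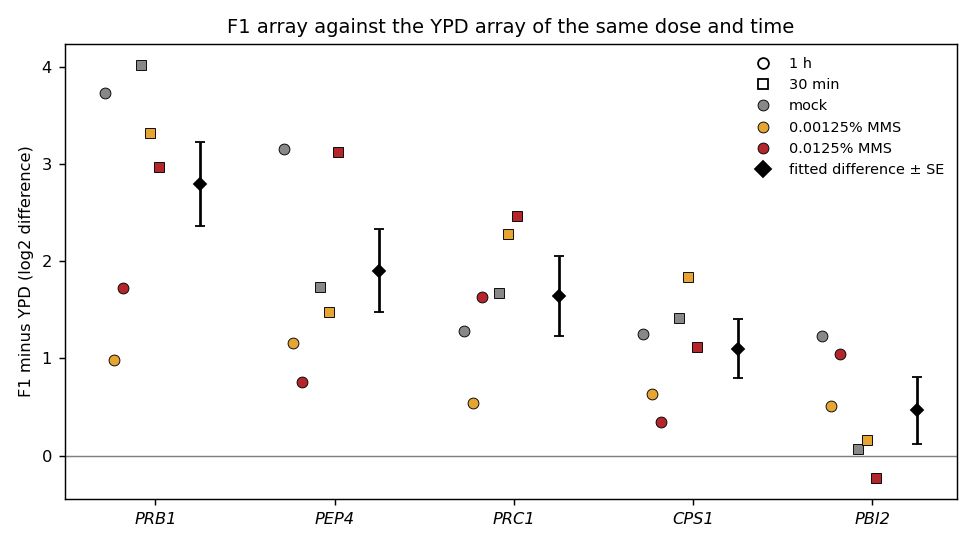
Difference in log2 intensity, F1 minus YPD (vertical axis), for each gene between arrays of the same dose and time, with circles at 1 h, squares at 30 min and colours for the dose. Black diamonds give the fitted difference with its SE. The 6 differences are above 0 for PRB1, PEP4, PRC1 and CPS1, and 1 of 6 is below 0 for PBI2.

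Read without any scaling, the ratio of spot integral to local background overlapped between F1 and YPD for PEP4, PRC1, CPS1 and PBI2. As the all-gene median of this ratio differed between arrays, the overlap does not show equal levels. For PRB1, chosen on this difference, the ranges given above are a description only. For PRC1 it was 1.43 to 2.22 in F1 and 1.04 to 2.04 in YPD. For CPS1 it was 1.06 to 2.30 in F1 and 1.03 to 3.13 in YPD, and for PBI2 it was 0.98 to 2.30 in F1 and 0.87 to 2.92 in YPD. A spot of the pair lay at or below the background on 2 YPD arrays for PRC1 and on 1 array of each medium for CPS1.

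**Figure D3:**
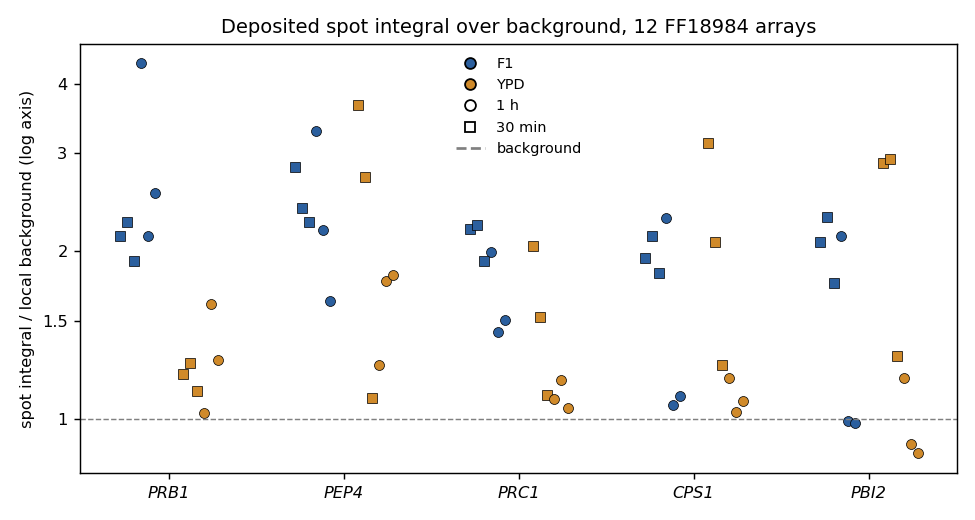
Spot integral divided by local background as deposited, on a log axis, for the 12 FF18984 arrays, with F1 left of YPD for each gene, circles at 1 h and squares at 30 min. The dashed line marks a spot no brighter than its background. The F1 points of PRB1, 1.92 to 4.35, all lie above its YPD points, 1.02 to 1.61, and the media overlap for the other 4 genes.

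Ordered by mean level over the 3 doses, the sets differed from gene to gene. PRB1 was highest in F1 at 30 min (2.51 ± 0.32), followed by F1 at 1 h (1.92 ± 0.43), YPD at 1 h (-0.23 ± 1.56), YPD at 30 min (-0.93 ± 0.63) and BY4742 (-1.84 ± 0.06; SD over 3 doses, and over 2 arrays for BY4742). Its F1 sets overlapped each other, as did its FF18984 YPD sets. PEP4 was highest in F1 at 30 min (3.28 ± 0.14), then F1 at 1 h (2.93 ± 0.08) and BY4742 (2.91 ± 0.94), which overlapped, then YPD at 1 h (1.25 ± 1.37) and YPD at 30 min (1.16 ± 0.83), which overlapped too. PRC1 was highest in F1 at 30 min (2.67 ± 0.16) with no overlap to the next set, and the ranges of all later neighbours overlapped, down to YPD at 1 h (-0.92 ± 0.91). CPS1 was highest in F1 at 30 min (2.86 ± 0.08), apart from YPD at 30 min (1.41 ± 0.29) and BY4742 (1.30 ± 0.45), which overlapped. The CPS1 sets at 1 h came last and overlapped, at -0.26 ± 0.43 in F1 and -1.0 ± 0.65 in YPD. PBI2 was highest in the 30 min sets, at 1.66 ± 0.07 in F1 and 1.66 ± 0.14 in YPD, followed by BY4742 (1.15 ± 0.20) and the overlapping sets at 1 h.

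Between 1 h and 30 min, the carboxypeptidase genes PRC1 and CPS1 and the inhibitor gene PBI2 were lower at 1 h, while PRB1 and PEP4 did not pass. CPS1 fell by 2.76 ± 0.30 on the log2 scale (SE; limma, adjusted p = 2.1e-06). PRC1 fell by 1.94 ± 0.41 (limma, adjusted p = 0.00096). PBI2 fell by 2.78 ± 0.34 (limma, adjusted p = 6.8e-06), but it was above background on 2 of the 6 arrays at 1 h, both mock, so the size is not exact. Between the mock arrays it differed by -1.40 in F1 and -2.56 in YPD. CPS1 and PRC1 were dim at 1 h too, with a median spot integral of 1.09 and 1.30 times the local background. Each had a spot at or below the background on 2 of the 6 arrays at 1 h, so their sizes are not exact either. All 3 were lower at 1 h in 6 of 6 arrays matched by dose and medium, and all 3 passed for the set means as well. For CPS1 and PBI2 all 6 arrays at 1 h lay below all 6 arrays at 30 min, as they did for 13.6% of genes. PEP4 differed by -0.13 ± 0.43 (limma, adjusted p = 0.82) and PRB1 by 0.06 ± 0.43 (limma, adjusted p = 0.92). Of all genes, 51.5% passed in this comparison, 24.6% as lower (21.4% for the set means), and 20.3% were lower in 6 of 6 matched arrays. Without background correction, PBI2 differed by -0.39 (limma, adjusted p = 0.19). Time and membrane cannot be told apart, and the BY4742 arrays, labelled 1 h, held CPS1 at 0.98 and 1.62, within or close to the range of 1.10 to 1.67 in FF18984 in YPD at 30 min.

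The drop at 1 h was seen in both media for these 3 genes. For CPS1 the mean difference was -3.12 in F1 and -2.41 in YPD, for PBI2 -2.31 and -3.24, and for PRC1 -2.44 and -1.45, in the same order of media. PRB1 differed by -0.59 in F1 and 0.70 in YPD, and PEP4 by -0.34 in F1 and 0.08 in YPD. These differences between the media were not tested.

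Between the high dose of MMS and mock treatment, none of the 5 genes passed in the limma fit. PRB1 came closest, at 1.19 ± 0.44 above mock (SE, 4 sets; limma, unadjusted p = 0.016, adjusted p = 0.26). Set by set, PRB1 was higher in high-dose cells by 0.72 in F1 at 1 h, 0.13 in F1 at 30 min, 2.73 in YPD at 1 h and 1.18 in YPD at 30 min. It was higher in 4 of 4 sets, as 8.25% of all genes were. In BY4742 the difference was -0.09. The YPD difference at 1 h rests on the mock array in which 1 of its spots lay at or below the background, and without that array the estimate was 0.59 ± 0.32 (SE; limma, adjusted p = 0.54). PRB1 was the only one of the 5 genes with an unadjusted p under 0.05, against 13.3% of all genes, and 0.082% of genes passed after adjustment.

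PEP4 and PRC1 lay above mock at 1 h and below it at 30 min in high-dose cells of both media. Over the 4 sets the fitted difference was 0.31 ± 0.47 for PEP4, 0.36 ± 0.43 for PRC1, 0.37 ± 0.31 for CPS1 and -0.49 ± 0.35 for PBI2 (SE; limma, adjusted p = 0.56 to 0.80). Without the YPD mock array at 1 h the estimates were -0.34 for PEP4, -0.011 for PRC1 and 0.20 for CPS1, so their direction or size rests on that array. PEP4 differed from mock by 0.16 in F1 and 2.55 in YPD at 1 h, and by -0.05 in F1 and -1.44 in YPD at 30 min. PRC1 differed by 1.61 in F1 and 1.27 in YPD at 1 h, and by -0.32 in F1 and -1.12 in YPD at 30 min. The test of dose by time gave 2.10 ± 0.78 for PEP4 (SE; limma, adjusted p = 0.20) and 2.16 ± 0.62 for PRC1 (limma, adjusted p = 0.12), so neither passed, while both had an unadjusted p under 0.05, as 17.1% of all genes did. Of all genes 0.23% passed. With median centring the all-gene median of this comparison shifted to 0.41, and PEP4 passed at 3.16 (limma, adjusted p = 0.038). CPS1 differed from mock by -0.09 to 1.13 over the 4 sets and PBI2 by -1.16 to 0.24. PBI2's lowest values were those of the 1 h sets, in which its treated arrays lay at or below the background. None of the 5 genes passed for dose by medium in limma, nor had an unadjusted p under 0.05, and 4.15% of all genes had one.

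The low dose gave no call either. The fitted differences from mock were 0.59 ± 0.44 for PRB1, 0.50 ± 0.47 for PEP4, 0.45 ± 0.43 for PRC1, -0.23 ± 0.31 for CPS1 and -0.59 ± 0.35 for PBI2 (SE, 4 sets; limma, lowest adjusted p = 0.83). No member had an unadjusted p under 0.05, and of all genes 6.43% had one and 0 passed after adjustment. For PRB1 and PEP4 the largest difference was in 1 set: in YPD at 1 h the low dose exceeded mock by 2.69 and 2.12, against -0.48 to 0.22 in the other 3 sets for PRB1 and -0.26 to 0.13 for PEP4. Without the YPD mock array at 1 h the estimate was -0.014 for PRB1, -0.15 for PEP4 and 0.077 for PRC1.

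In BY4742 the high-dose array and the mock array differed most for PRC1, at 2.06 against 0.10, and for PEP4, at 3.58 against 2.25. A difference above 1 was seen in 5.15% of all genes. CPS1 was at 0.98 and 1.62, PBI2 at 1.01 and 1.30 and PRB1 at -1.89 and -1.80, in the order high dose, mock. With 1 array each, none of these differences has a replicate check. The mock level of PRB1 in BY4742 (-1.80) was close to that of FF18984 in YPD at 1 h (-2.03) and at 30 min (-1.40). PEP4 in BY4742 mock cells (2.25) lay above FF18984 mock cells in YPD at 1 h (-0.31) and at 30 min (1.64).

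The other inhibitor on the arrays, TFS1, which encodes the inhibitor of carboxypeptidase Y, stood at 0.60 ± 0.40 in F1 and -0.41 ± 0.44 in YPD (SD, n = 6 each). Its difference was 1.02 ± 0.34 (SE) and did not pass (limma, adjusted p = 0.091). The inhibitor of proteinase A, PAI3, was not measured.

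Among 13 relatives of the proteases by sequence family, 2 passed as higher in F1 and 0 as lower, against 1.95% of all genes as higher. For the set means 1 passed, against 0.985%. Their median difference was 0.24, against 0.02 for all genes. YPS1, which encodes yapsin 1, an aspartyl protease of the cell surface, stood at 4.33 ± 0.42 in F1 and 2.23 ± 0.51 in YPD (SD, n = 6 each). Its difference of 2.10 ± 0.26 (SE) passed in both tests (limma, adjusted p = 0.00078 with the random block and 0.0070 for the set means). YPS3, another yapsin, was higher by 1.04 ± 0.28 in the random-block fit (limma, adjusted p = 0.044) and did not pass for the set means (limma, adjusted p = 0.39). The other yapsins gave 1.04 for YPS5, 0.24 for YPS7, -0.24 for YPS6 and -1.0 for MKC7, and BAR1, the protease that degrades alpha-factor, gave 0.20. KEX1, a carboxypeptidase of the Golgi that processes the killer toxin and alpha-factor, was lower in F1 in 6 of 6 pairs at -1.10 ± 0.32 and did not pass (limma, adjusted p = 0.058). ATG42, a vacuolar serine carboxypeptidase, gave 0.89, and YOL153C, a relative of CPS1, gave 0.42. The subtilisin relatives YSP3, KEX2 and RRT12 gave -0.77, -0.61 and 0.30. None of the genes named here without a p passed in the random-block fit.

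Of 10 other hydrolases of the vacuole, 1 passed as higher in F1 and 0 as lower, against 1.95% of all genes as higher. All 10 estimates were above 0, as were 3122 of the 6094 genes, and the median was 0.32. AMS1, ATG15 and PFF1 were above background on no more than 2 of 6 arrays per medium, so the signs of their estimates say little. PPN1, which encodes a polyphosphatase of the vacuole, stood at 0.94 ± 0.68 in F1 and -1.40 ± 0.70 in YPD (SD, n = 6 each). It passed in both tests at 2.34 ± 0.43 (SE; limma, adjusted p = 0.0048 and, for the set means, 0.0020), although it was above background on 3 of 6 YPD arrays only. APE1, the aminopeptidase I gene, gave 0.95 ± 0.30 (limma, adjusted p = 0.078), and PHO8, the vacuolar alkaline phosphatase gene, 0.75 ± 0.28 (limma, adjusted p = 0.13).

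**Figure D4:**
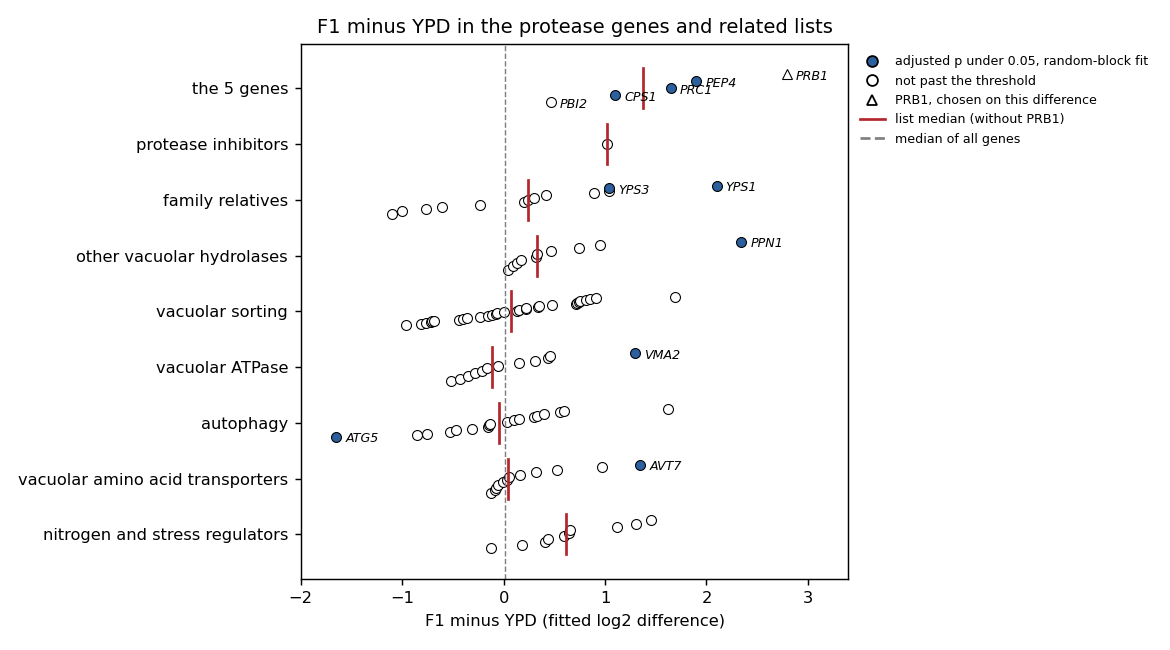
Fitted F1 minus YPD difference in log2 intensity (horizontal axis) of each measured gene of the protease system and of 8 related lists, with filled points past the threshold in the random-block fit, red bars at list medians and a dashed line at the median of all genes. The bar of the protease genes leaves out PRB1 and stands at 1.37, and the medians of the other lists of over 1 gene lie between -0.11 and 0.62.

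The machinery that delivers and acidifies the vacuole was compared between the media as well. Its lists are short, so their counts of calls are not read as a result about the machinery. Over all genes, 119 of 6094 passed as higher in F1 and 201 as lower in the random-block fit. For the set means 0.985% passed as higher. Of 30 sorting genes 0 passed in the limma fit, and the median was 0.07. An unadjusted p under 0.05 was found for 10 of the 30, a larger share than the 20.4% of all genes. The 3 with the smallest p were VPS8, a subunit of the CORVET tethering complex (1.69 ± 0.53), PEP3, a core subunit of both tethering complexes (-0.96 ± 0.37), and VPS34, the phosphatidylinositol 3-kinase (-0.69 ± 0.28). Of 12 measured genes of the vacuolar ATPase, the proton pump, VMA2 alone passed, at 1.30 ± 0.36 (SE; limma, adjusted p = 0.044), and not for the set means (limma, adjusted p = 0.20). The next by p, VMA13 and VMA16, gave 0.46 and -0.52. Of 18 autophagy genes, ATG5, part of the conjugation machinery, passed as lower in F1, at -1.65 ± 0.41 (SE; limma, adjusted p = 0.026), and not for the set means (limma, adjusted p = 0.058). ATG19, the receptor that carries aminopeptidase I to the vacuole, gave 1.62 ± 0.47 (limma, adjusted p = 0.057) and passed for the set means (limma, adjusted p = 0.034). It was above background on 1 of 6 YPD arrays. ATG27 gave -0.85.

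Of 12 amino acid transporters of the vacuole, AVT7 alone passed as higher in F1, against 1.95% of all genes. AVT7 gave 1.35 ± 0.34 (SE; limma, adjusted p = 0.027) and did not pass for the set means (limma, adjusted p = 0.11). It was above background on 2 of 6 YPD arrays. VBA1 and AVT6 gave 0.97 and 0.53. Among 10 regulators of nitrogen use and stress, 0 passed in the limma fit and 2 had an unadjusted p under 0.05, close to the 20.4% of all genes. Of the 10 estimates 9 were above 0, and the median was 0.62. GAT1, an activator of nitrogen-regulated genes, gave 1.45 ± 0.44 (limma, adjusted p = 0.066). GCN4, the activator of amino acid synthesis genes, gave 1.30 ± 0.40 (limma, adjusted p = 0.075), and DAL80, a repressor of nitrogen catabolic genes, gave 0.64 ± 0.35.

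Genes with a like pattern were sought by Pearson correlation over the 12 FF18984 arrays after the mean of each time was subtracted, among 2661 genes above background on all 12. The arrays share membranes and the difference between media, and genes that differ between the media as strongly come out alike. For PRB1 the first 5 were PYC2, a pyruvate carboxylase gene (r = 0.98), HIS4, of histidine synthesis (0.96), PIL1, an eisosome component (0.96), IDP1, a mitochondrial isocitrate dehydrogenase gene (0.96), and LEU4, of leucine synthesis (0.95). For PEP4 they were BAT1, a branched-chain aminotransferase gene (0.95), PSP1, NRG1, a transcriptional repressor gene, ECM33, of the cell wall, and ERP2 (0.94 to 0.93). For PRC1 they were DCW1, CYS3, of cysteine synthesis, LEU1, of leucine synthesis, PSP1 and PYC2 (0.94 to 0.92). For CPS1 they were the open reading frame labelled YBL005W2, NNF1, a kinetochore gene, GLC3, of glycogen synthesis, ARG4, of arginine synthesis, and YML045W (0.94 to 0.90). For PBI2, which was at or below background on 4 of the 12 arrays, they were RSC58, UTP11, REC107, FYV7 and MOG1 (0.85 to 0.80).

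Among themselves, the 4 protease genes were closer to each other on this measure than to PBI2, but many other genes were closer still. The measure carries the difference between the media, on which PRB1 was chosen and which was smallest for PBI2. The values are therefore a description, and nothing is read from them about proteases against their inhibitor. For PRB1, PEP4 ranked 51, PRC1 47 and CPS1 45 among the candidates. PRB1 correlated at 0.88 with each of PEP4, PRC1 and CPS1, and PEP4 at 0.90 with PRC1. CPS1 correlated at 0.77 with PEP4 and 0.76 with PRC1, which ranked 105 and 112 for CPS1. PBI2 correlated at 0.13 with PRB1, the protease it inhibits, and at -0.07 to 0.25 with the other 3 protease genes.

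**Figure D5:**
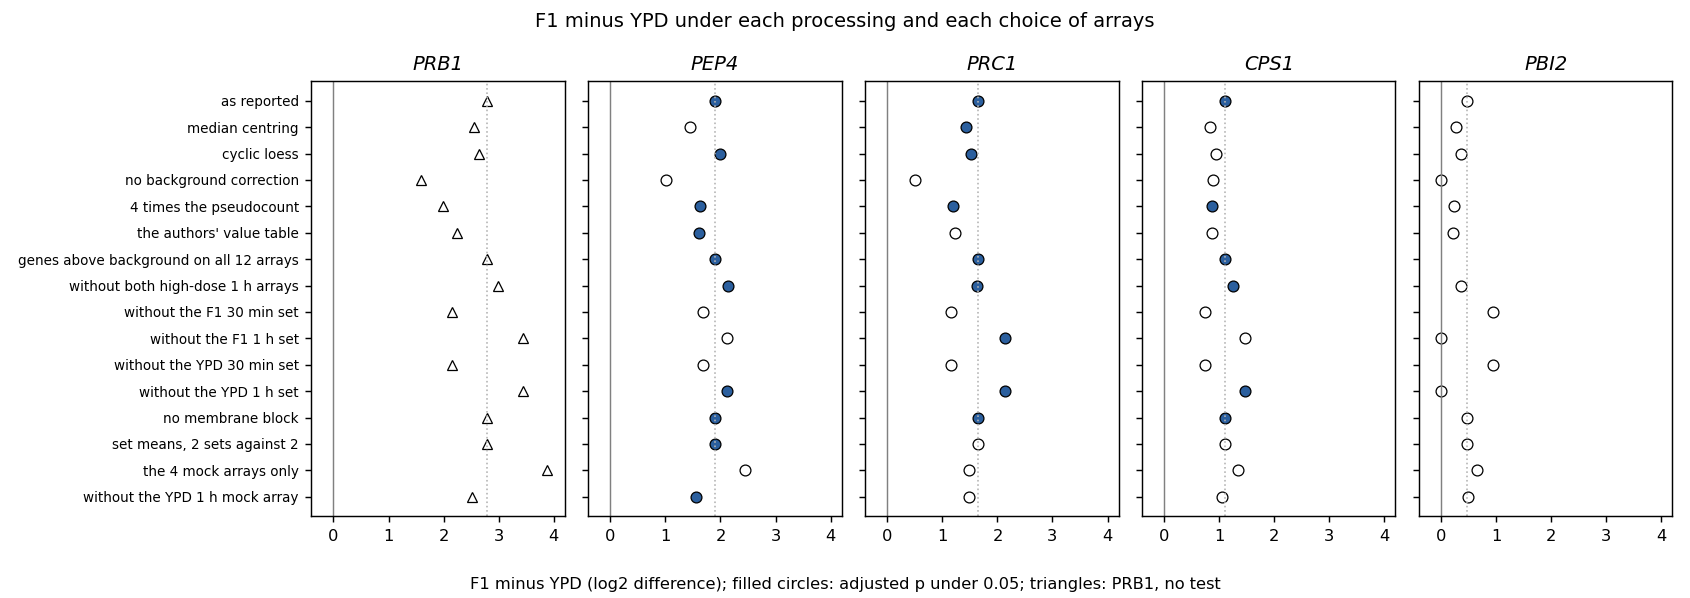
Fitted F1 minus YPD difference in log2 intensity (horizontal axes) of each gene under each processing and each choice of arrays (rows), with filled circles at an adjusted p under 0.05 and triangles for PRB1, which has no test. The dotted line marks the value as reported. PRB1 lies between 1.59 and 3.88, and PEP4, PRC1 and CPS1 stay above 0 in all settings shown.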

How the data were processed

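Total RNA of 14 yeast samples was labelled with radioactive dATP by reverse transcription and hybridised to membranes, per the labels. Per the file headers, the deposited files hold 3 intensity values per spot: the integral, the background around the spot, and the first minus the second. How the authors scanned the membranes and the genome build are not given in the sources used here. They hold 6912 positions with 2 spots each, 6102 of them with an open reading frame, which are 6094 distinct frames. Symbols for 5576 frames came from the RefSeq gene table of the R64 assembly. The authors' series table of intensity values served as an alternative.

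The background-subtracted intensity of both spots was divided by the median positive value of the array, set to 0 where negative, raised by a pseudocount of 0.187 (the 10th percentile of positive scaled values) and taken to log2. Spots of a gene were averaged and arrays quantile normalized (limma 3.58.1, R 4.3.3), with no filter. A gene was at or below background where its mean subtracted intensity was 0 or less. Each array is 1 condition, so no SD over replicates exists. SDs are over doses or over doses and times.

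Media and times were compared in limma (lmFit, eBayes) on the 12 FF18984 arrays with dose as a further term and the membrane as a random block, whose consensus correlation was 0.074 (duplicateCorrelation; statmod 1.5.0). Doses were compared with the set as a fixed block. The threshold was 0.05 for p adjusted by Benjamini-Hochberg over the 6094 genes. On data simulated with set effects independent between genes, the fits recovered the differences put in. The random block was estimated too low and its p-values were too small. The comparison of set means kept its error rate in these simulations. Its SE was nearly the same for each of the genes described, so it hardly reflects the spread of the single gene. Both tests are therefore given. The 5 genes and the lists were chosen with earlier results of these data known. Named were the 5 genes in each comparison, TFS1 and the family relatives between the media, of each other list the genes that passed or the 3 with the smallest p, and the 5 genes most like each of the 5. Alternatives were another normalization, no background correction, a larger pseudocount, the series table, a filter on dim genes, arrays or sets left out, no block, set means and mock arrays only. Leaving out the YPD mock array at 1 h was chosen after seeing the data, as were the 4 marker genes deleted in whole or in part in BY4742. Python 3.11.15, numpy 2.4.6, pandas 2.3.3 and matplotlib 3.10.9 were used. Sequences were not used here.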

Additional observations from a re-analysis of the deposited data

How the results depend on the processing

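The labels give no replicate numbers that could pair samples, and the doses were compared within membrane sets. Between the media, 320 genes passed as reported. The count was 201 without background correction, 495 with no membrane block, 136 for set means, 10 with the 4 mock arrays only, 193 without the F1 30 min set, 65 without the YPD 30 min set and 482 without the YPD 1 h set. PRB1 was at 1.59 without background correction. PEP4 no longer passed at 1.44 (median centring), 1.01 (no background correction), 1.69 (without either 30 min set), 2.11 (without the F1 1 h set) and 2.44 (mock only). PRC1 no longer passed at 0.51 (no background correction), 1.23 (series table), 1.15 (without either 30 min set), 1.65 (set means), 1.48 (mock only) and 1.49 (without the YPD 1 h mock array). CPS1 no longer passed at 0.84 (median centring), 0.94 (cyclic loess), 0.88 (no background correction), 0.86 (series table), 0.74 (without either 30 min set), 1.46 (without the F1 1 h set), 1.10 (set means), 1.33 (mock only) and 1.04 (without the YPD 1 h mock array). Between the media PRB1, PEP4, PRC1 and CPS1 stayed above 0 in all 15 alternatives. Fits that leave out a set took the membrane correlation of the whole.

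Between the times 3139 genes passed, 1475 with the filter on dim genes, which tests fewer genes, and 1514 with mock arrays only. PRC1 no longer passed at -1.45 without either F1 set, nor PBI2 at -0.39 without background correction. For the high dose 5 genes passed, 0 under median centring or without the F1 1 h, YPD 30 min or YPD 1 h set, 1 with cyclic loess or without the YPD 1 h mock array, 2 without background correction and 11 without the F1 30 min set. For dose by medium 0 passed, and 4 without the F1 1 h set. For dose by time 14 passed, 447 under median centring, 46 without background correction, 158 without the YPD 30 min set, and 0 with cyclic loess, the series table or without any other set. PEP4 passed there at 3.16 under median centring. The other alternatives left the calls of the 5 genes as reported. Except where another arrangement of arrays was the alternative, the cause was not tested. With the BY4742 arrays added and no time mean subtracted, 2 changes made together, 1 of the 5 genes most like each was shared for PRB1, PRC1 and CPS1, 2 for PEP4 and 0 for PBI2. Signal over background limits PRB1 on part of the YPD arrays and PBI2 in treated cells at 1 h. It also limits CPS1 at 1 h and PRC1 in YPD at 1 h.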
